A study of Mus musculus with 6 samples.

Results

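The beta crystallins are a family of structural proteins of the lens, and transcripts of all 6 genes, the acidic forms Cryba1, Cryba2 and Cryba4 and the basic forms Crybb1, Crybb2 and Crybb3, were measured by RNA-sequencing. They were matched by gene symbol and are 6 of the 13931 genes in the table. The lenses were taken from newborn (P0) mice, and 3 control libraries were compared with 3 Celf1cKO libraries, each made from a pool of lenses. Celf1cKO mice carried 1 Celf1lacZKI allele, a germline knockout, and 1 Celf1flox allele, from which Pax6GFPCre removes an exon. This Cre is active in the lens lineage from the placode stage and also in the pancreas. By their labels the controls were Celf1lacZKI/+, in which case both groups share the germline knockout allele, whereas the study's methods describe controls in general as Celf1flox mice that lack Cre, so the control genotype was not settled. All mice were of mixed C57BL/6 and FVB background.

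Beta crystallins belong with the gamma crystallins to a superfamily of compact proteins built of Greek key motifs, and together with the alpha crystallins they fill the cytoplasm of lens fiber cells at the concentration that gives the lens its refractive power. Acidic forms have an extension at the amino end, and basic forms have extensions at both ends. The forms associate into mixed dimers and larger oligomers. Their genes are switched on as epithelial cells become fiber cells, under transcription factors such as the large Maf proteins, Pax6, Prox1 and Sox proteins, and mutations of several of them cause cataract in humans and mice. CELF1, the protein whose gene was targeted here, binds RNA at GU-rich sequences and acts on splicing, decay and translation of its targets.

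On GRCm38, Cryba1 (ENSMUSG00000000724) is on chromosome 11 (77718615 to 77725283, - strand) and Cryba2 (ENSMUSG00000006546) on chromosome 1 (74889934 to 74893143, - strand). The other 4 lie on chromosome 5 in pairs of neighbours. Cryba4 (ENSMUSG00000066975, 112246493 to 112252518, - strand) and Crybb1 (ENSMUSG00000029343, 112255815 to 112269585, + strand) point away from each other, with 3297 bases between their starts. Crybb2 (ENSMUSG00000042240, 113058258 to 113070117, - strand) and Crybb3 (ENSMUSG00000029352, 113075839 to 113081584, - strand) point the same way, with 5721 bases between the genes. No annotated gene lies between the genes of either pair, and 788672 bases separate the pairs. The principal transcripts have 5 exons in Cryba2, 7 in Crybb2 and 6 in the other 4 genes.

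The promoters of the chromosome 5 genes are shown because their ratios within a pair are compared below. Each sequence, from RefSeq on GRCm38.p6, runs 5′ to 3′ on the gene's own strand from 250 bases before to 50 bases after the annotated start, and capitals mark the letters TATAAA, the core of the TATA box, and TGCTGA, part of the site that Maf proteins bind (written TCAGCA where it lies on the opposite strand). All 6 genes had an entry.
Cryba4 promoter, chr5:112252469-112252768, - strand: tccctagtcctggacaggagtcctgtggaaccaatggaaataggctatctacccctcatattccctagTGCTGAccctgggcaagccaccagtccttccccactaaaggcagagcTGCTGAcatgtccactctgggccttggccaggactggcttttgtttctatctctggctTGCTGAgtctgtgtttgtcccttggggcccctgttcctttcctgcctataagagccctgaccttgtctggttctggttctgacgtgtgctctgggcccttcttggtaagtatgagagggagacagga
Crybb1 promoter, chr5:112255570-112255869, + strand: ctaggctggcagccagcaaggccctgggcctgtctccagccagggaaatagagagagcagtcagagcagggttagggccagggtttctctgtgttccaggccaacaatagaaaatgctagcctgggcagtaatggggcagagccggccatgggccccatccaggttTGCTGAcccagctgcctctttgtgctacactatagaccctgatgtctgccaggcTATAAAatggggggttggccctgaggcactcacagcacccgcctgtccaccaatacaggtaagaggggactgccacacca
Crybb2 promoter, chr5:113070068-113070367, - strand: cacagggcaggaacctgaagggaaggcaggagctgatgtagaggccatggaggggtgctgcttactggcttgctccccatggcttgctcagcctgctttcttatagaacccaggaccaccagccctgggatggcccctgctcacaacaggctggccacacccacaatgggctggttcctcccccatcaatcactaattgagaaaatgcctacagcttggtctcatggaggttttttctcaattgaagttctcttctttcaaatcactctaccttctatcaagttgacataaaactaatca
Crybb3 promoter, chr5:113081535-113081834, - strand: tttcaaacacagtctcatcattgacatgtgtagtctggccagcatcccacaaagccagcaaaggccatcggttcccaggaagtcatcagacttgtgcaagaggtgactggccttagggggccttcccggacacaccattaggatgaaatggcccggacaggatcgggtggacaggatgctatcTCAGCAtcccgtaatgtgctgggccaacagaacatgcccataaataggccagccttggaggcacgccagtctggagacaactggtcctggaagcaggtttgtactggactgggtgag

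Both strands of every window were searched for 5 motifs, and no match overlapped another. TGCTGA, which 19.5% of all 32851 promoters of that length hold, was found in 5 of the 6 members, with 3 matches in Cryba4 (first base at -182, -135 and -77) and 1 each in Cryba1 (-57), Cryba2 (-149), Crybb1 (-84) and Crybb3 (-67). TATAAA, held by 13.6% of promoters, was found in Cryba1 (-23), Cryba2 (-3) and Crybb1 (-30). The AP-1 letters TGACTCA, held by 5.20% of promoters, were found in Cryba2, the Sox letters AACAAT, held by 10.7%, in Crybb1, and the heat shock element letters TTCNNGAA, held by 8.52%, in Cryba1. The Crybb2 window held none of the 5. That window belongs to the most upstream start, and the other 4 annotated Crybb2 transcripts start 623 to 1660 bases downstream of it. The Crybb3 window likewise belongs to an upstream start, and the principal transcript, used for levels per kilobase, starts 474 bases downstream. The 3′ UTRs of the principal transcripts have between 55 and 178 bases, and none of them held the letters TGTTTGT, chosen as an example of what CELF1 binds. Among all protein-coding genes of the table, 29.5% hold these letters in the 3′ UTR, and 2.82% of the 1275 genes whose 3′ UTR has at most 200 bases do.

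Between 40694454 and 44387151 reads were counted on genes per library, and 3 reads, taken as the smallest level that this depth can show, correspond to between 0.0609 and 0.0807 CPM, that is reads of a gene scaled to the size of the library. Celf1, the deleted gene, was at 9.95, 9.94 and 9.34 log2 CPM in controls 1 to 3 and at 8.93, 7.66 and 7.83 log2 CPM in Celf1cKO libraries 1 to 3. Celf1cKO library 1 retained the most Celf1 of its group. The alpha crystallin Cryaa, which defines the lens, was at 16.8 log2 CPM or more in every library. Summed levels of 7 lens epithelium markers were 614 to 643 CPM in control and 186 to 521 CPM in Celf1cKO libraries, lowest in Celf1cKO library 2. Of 11 retina and retinal pigment epithelium markers, 8 were in the table (Crx, Nrl and Rpe65 were not), and their sum was 4.01 to 38.5 CPM in control and 9.13 to 35.0 CPM in Celf1cKO libraries, highest in library 3 of each group. Of 10 vascular and blood markers, 5 were in the table (the hemoglobin genes and Ptprc were not), with sums of 48.8 to 68.2 CPM and 7.04 to 65.9 CPM, lowest in Celf1cKO library 2. Of 7 cornea and skin markers only Krt10 was in the table, at 3.86 to 4.33 CPM and 3.38 to 3.70 CPM. The part of these markers in the results was not tested.

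Transcripts of all 6 beta crystallin genes were lower in every Celf1cKO library than in any control library at the deposited scaling, while quantile normalization, which keeps only the rank of a gene within its library, put Cryba4 0.47 and Crybb3 0.04 above control on the log2 scale. Under it Cryba1 did not differ between the groups, Crybb1 was at -0.04, Cryba2 at -0.62 and Crybb2 at -1.60, and of the 6 only Crybb2 was called reduced. Of all genes in the table, 17.0% were lower without overlap in the same way. Crybb2, Cryba2 and Cryba4 were called reduced by limma with Benjamini-Hochberg adjustment over all genes, which required a log2 fold-change beyond 0.58, an average log2 CPM above 1 and an adjusted p below 0.05. Of all genes, 2.63% were called reduced and 4.77% elevated. The median log2 fold-change of the 6 genes was -0.65, that of all genes -0.04. Lower levels in whole lenses do not tell fewer fiber cells apart from less RNA per fiber cell. The 3 calls were kept without Celf1cKO library 1, but none of the 6 genes was called when any 1 of the other 5 libraries (control 1, 2 or 3, Celf1cKO 2 or 3) was left out, and without control library 2 or Celf1cKO library 3 no gene of the whole table was called reduced. The 6 libraries share replicate numbers between the groups, and with that number as a block Cryba4 was no longer called.

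**Figure D1:**
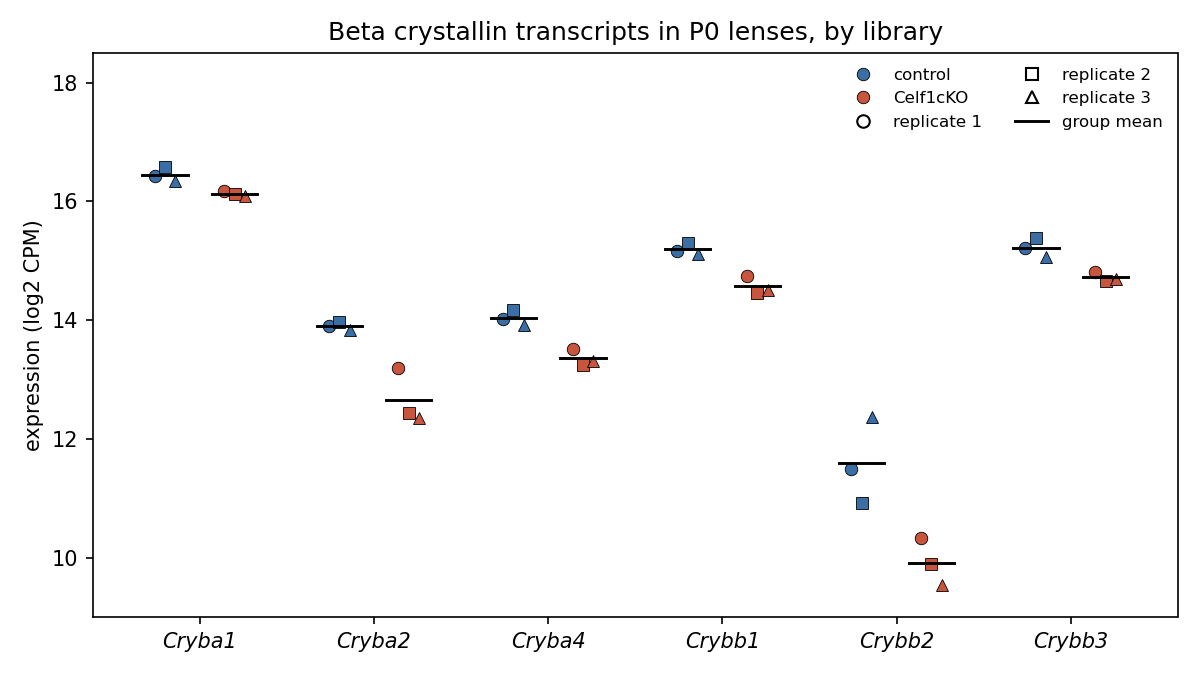
Expression of the 6 beta crystallin genes in log2 CPM as deposited (vertical axis) by gene, with control libraries in blue, Celf1cKO libraries in red, a marker shape for each replicate number and a bar at the group mean. The groups do not overlap for any gene, and they lie closest for Cryba1 (16.34 in the lowest control and 16.18 in the highest Celf1cKO library) and farthest apart in means for Crybb2.

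Of the acidic forms, Cryba1 was the most abundant and differed least. Its single mRNA is translated into a longer and a shorter protein from alternative start codons. It was at 16.43, 16.57 and 16.34 log2 CPM in controls 1 to 3 and at 16.18, 16.12 and 16.08 log2 CPM in Celf1cKO libraries 1 to 3. The Celf1cKO libraries lay just below the lowest control library. The mean was 80.1% of control, a log2 fold-change of -0.32 (standard error 0.28), which was not called (limma, adjusted p = 0.475). Cryba1 overlaps Nufip2 on the opposite strand, whose level was 5.98 to 6.54 log2 CPM in the 6 libraries, and the strand setting of the counting is not given in the sources used here.

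Cryba2, another acidic form, was at 13.91, 13.97 and 13.84 log2 CPM in controls 1 to 3 and at 13.20, 12.43 and 12.35 log2 CPM in Celf1cKO libraries 1 to 3. Controls lay close together, and Celf1cKO libraries 2 and 3 lay well below Celf1cKO library 1. It was reduced to 42.1% of control, with a log2 fold-change of -1.25 (standard error 0.24, limma adjusted p = 0.0216). Leaving out 1 library at a time gave log2 fold-changes between -1.52 and -1.09. It was not called without the variance trend (limma adjusted p = 0.0518) or under quantile normalization, which gave -0.62 (limma adjusted p = 0.107).

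Cryba4, the acidic neighbour of Crybb1, was at 14.01, 14.16 and 13.91 log2 CPM in controls 1 to 3 and at 13.52, 13.25 and 13.30 log2 CPM in Celf1cKO libraries 1 to 3. Every Celf1cKO library was below the lowest control library. It was reduced to 62.8% of control, with a log2 fold-change of -0.67 (standard error 0.17, limma adjusted p = 0.0440). With the replicate number as a block, limma gave an adjusted p = 0.0805. Scaled by total counted reads, its log2 fold-change was -0.45, short of the cut-off, and quantile normalization turned the direction.

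Of the basic forms, Crybb1, an early gene of fiber cell differentiation, was at 15.17, 15.30 and 15.12 log2 CPM in controls 1 to 3 and at 14.74, 14.46 and 14.51 log2 CPM in Celf1cKO libraries 1 to 3. The groups did not overlap. The mean was 64.8% of control, with a log2 fold-change of -0.63 (standard error 0.21), and it was not called (limma, adjusted p = 0.0923). It was called when limma used robust empirical Bayes (adjusted p = 0.0169), when only expressed genes entered the fit (0.0289) and when limma voom was run on the recovered reads (0.0173).

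Crybb2 is a basic form that becomes a major protein of the lens after birth. It was at 11.49, 10.91 and 12.37 log2 CPM in controls 1 to 3 and at 10.33, 9.89 and 9.53 log2 CPM in Celf1cKO libraries 1 to 3. Its controls were spread the most of all 6 genes, with a standard deviation of 0.73 against at most 0.15 for the other 5, and the gap between control library 2 and Celf1cKO library 1 was smaller than the spread among controls. It was reduced to 31.3% of control, with a log2 fold-change of -1.67 (standard error 0.36, limma adjusted p = 0.0306). Without control library 3 the log2 fold-change was -1.28 and without control library 2 it was -2.01. Control library 3 had both the highest Crybb2 and the highest sum of retina markers among controls (38.5 CPM), whereas Celf1cKO library 3, with 35.0 CPM of those markers, had the lowest Crybb2 of all libraries. By number of reads Crybb2 ranked 25, 34 and 19 among all genes in controls 1 to 3 and 47, 70 and 82 in Celf1cKO libraries 1 to 3. A processed pseudogene, Gm43247, lies within Crybb2 on the opposite strand.

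Crybb3, the basic neighbour of Crybb2, was at 15.21, 15.38 and 15.07 log2 CPM in controls 1 to 3 and at 14.80, 14.66 and 14.70 log2 CPM in Celf1cKO libraries 1 to 3. The groups did not overlap. The mean was 70.8% of control, with a log2 fold-change of -0.50 (standard error 0.21), and it was not called (limma, adjusted p = 0.162). Quantile normalization gave 0.04 in its place.

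Among the controls the 6 genes did not vary alike. In log2 CPM, Cryba1, Cryba2, Cryba4, Crybb1 and Crybb3 were each highest in control library 2 and lowest in control library 3. Crybb2 had the opposite order, with its highest value in control library 3 and its lowest in control library 2. This order depends in part on the scaling. As a percent of counted reads, Cryba2 was highest in control library 1 (1.44%, 1.43% and 1.41% in controls 1 to 3), while Cryba1, Cryba4, Crybb1, Crybb3 and Crybb2 kept their order. In the Celf1cKO group all 6 genes were highest in library 1, the library with the highest Celf1 transcript level and the highest sum of epithelium markers of its group.

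From the largest to the smallest reduction, the log2 fold-changes ran Crybb2, Cryba2, Cryba4, Crybb1, Crybb3 and Cryba1, with acidic and basic forms interleaved. The median was -0.67 over the acidic and -0.63 over the basic forms. Within libraries, the ratios of neighbours in this order overlapped between the groups for Crybb2 and Cryba2 (exact permutation test, two-sided, p = 0.6), Cryba4 and Crybb1 (p = 0.3) and Crybb1 and Crybb3 (p = 0.2). They did not overlap for Cryba2 and Cryba4 or for Crybb3 and Cryba1, each at an exact permutation p = 0.1, the smallest that 3 libraries against 3 allow. Over all 15 pairs of the 6 genes, the ratio did not overlap between the groups in 11, and no adjusted p-value was below 0.136. The 15 ratios reuse the same 6 genes and are not independent, and the share among pairs of all genes was not computed. In reads as counted, the ratio of Cryba1 to each of the other 5 was higher in every Celf1cKO library than in any control library. Reads of Cryba1 per read of Cryba2 went from 5.82 in control to 11.1 in Celf1cKO libraries, and per read of Crybb2 from 29.0 to 74.2 (geometric means).

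**Figure D2:**
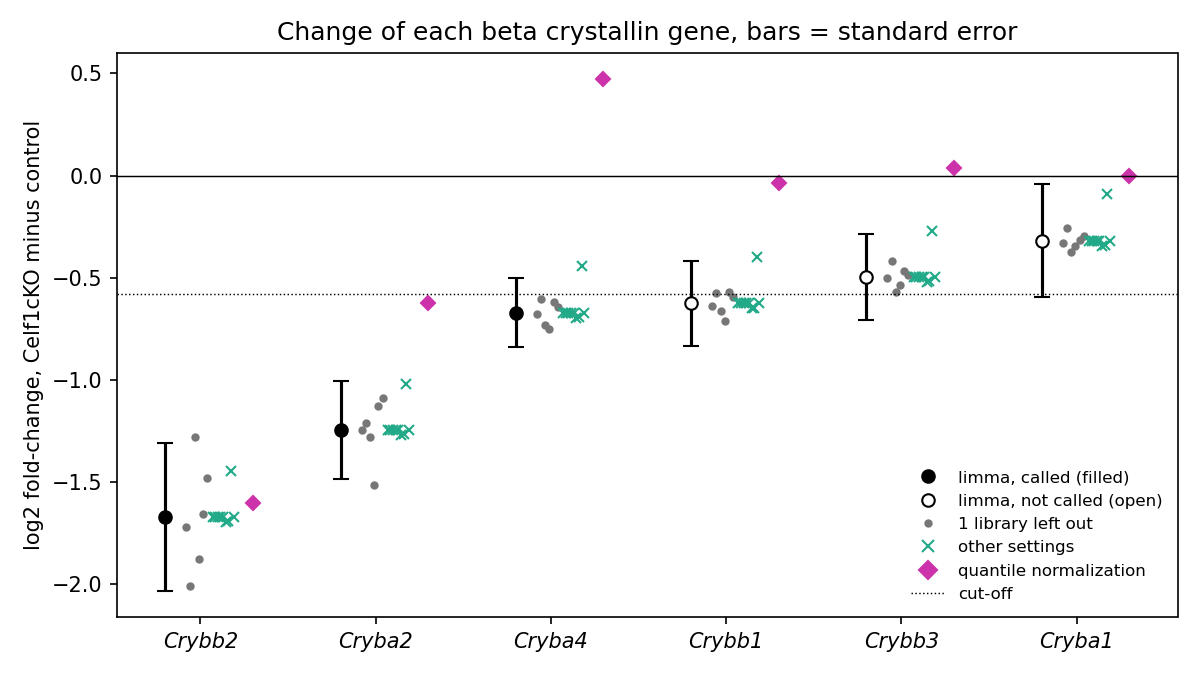
Log2 fold-change of Celf1cKO against control for each gene (vertical axis), with black points for limma on the deposited log2 CPM and bars of 1 standard error, grey points for fits that left out 1 library, green crosses for other settings and magenta diamonds for quantile normalization. The points run from -1.67 for Crybb2 to -0.32 for Cryba1, and the diamonds of Cryba4 (0.47) and Crybb3 (0.04) lie above 0 while the other settings stay below it.

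Compared per kilobase of the principal transcript, levels in control libraries ran from Cryba1 at 115121 ± 9568 CPM per kb (SD, n = 3) through Crybb3 at 42965 ± 4569 and Crybb1 at 42623 ± 2667 to Cryba2 at 21325 ± 1001, Cryba4 at 20737 ± 1843 and Crybb2 at 3709 ± 1912. Crybb3 and Crybb1 did not differ beyond their spread, nor did Cryba2 and Cryba4. In Celf1cKO libraries the levels were 92096 ± 3270 for Cryba1, 30336 ± 1564 for Crybb3, 27676 ± 3008 for Crybb1, 13021 ± 1304 for Cryba4, 9316 ± 3231 for Cryba2 and 1093 ± 303 for Crybb2, all in CPM per kb. By this length Cryba2 was below Cryba4 in each Celf1cKO library (13039 against 14502, 7662 against 12040 and 7248 against 12523 CPM per kb) but not in control libraries 1 and 3. The order depends on the length used, since per kilobase of all annotated exons Crybb3 in controls came to 16427 CPM per kb, below Crybb1 at 38166 and Cryba4 at 19994. By that length, and in CPM without a length, Cryba2 was below Cryba4 in every library of both groups (12861 against 19714, 13478 against 21895 and 12270 against 18374 CPM per kb in the controls).

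The 6 genes together took 18.6%, 19.2% and 18.2% of the counted reads in controls 1 to 3 and 16.1%, 14.9% and 15.1% in Celf1cKO libraries 1 to 3. Every Celf1cKO share was below every control share, with means of 18.7% ± 0.54 and 15.4% ± 0.68 (SD, n = 3 each, exact permutation test, two-sided, p = 0.1). The acidic share was 11.3% ± 0.41 in control and 9.66% ± 0.36 in Celf1cKO libraries, and the basic share was 7.37% ± 0.13 and 5.70% ± 0.33 (SD, n = 3 each, exact permutation p = 0.1 for both). Cryba1 alone took 8.32% ± 0.33 and 7.79% ± 0.06 of all reads (SD, n = 3 each, exact permutation p = 0.1). The other 5 genes together took 10.3% ± 0.20 and 7.57% ± 0.63 (SD, n = 3 each, exact permutation p = 0.1). Of the beta crystallin reads, Cryba1 made up 44.6%, 45.0% and 44.0% in controls 1 to 3 and 48.7%, 52.4% and 51.3% in Celf1cKO libraries 1 to 3. Crybb3 made up 19.0% ± 0.69 and 19.2% ± 0.47 of them (SD, n = 3 each, exact permutation p = 0.9), with overlapping groups.

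Of the reads of all 16 alpha, beta and gamma crystallin genes, the beta crystallins made up a larger part in Celf1cKO libraries. They were 40.7%, 41.0% and 39.3% of these reads in controls 1 to 3 and 41.9%, 42.8% and 42.4% in Celf1cKO libraries 1 to 3 (exact permutation p = 0.1), the opposite direction to their share of all reads. The alpha crystallins differed more, by 5.42 percentage points against 2.07 for the beta crystallins. They went from 33.3% ± 0.71 to 38.7% ± 1.8 of crystallin reads (SD, n = 3 each, exact permutation p = 0.1). Only the gamma crystallins made up a smaller part, from 26.4% ± 0.22 to 18.9% ± 2.2 of crystallin reads (SD, n = 3 each, exact permutation p = 0.1). The gamma crystallins went from 12.2% ± 0.18 to 6.90% ± 1.2 of all reads and the alpha crystallins from 15.4% ± 0.32 to 14.0% ± 0.20 (SD, n = 3 each, exact permutation p = 0.1 for both). All 3 families together took 46.3% ± 0.58 in control and 36.3% ± 2.0 in Celf1cKO libraries (SD, n = 3 each, exact permutation p = 0.1). Within the crystallin reads, the acidic beta forms went from 24.4% ± 0.75 to 26.6% ± 0.52 (SD, n = 3 each, exact permutation p = 0.1). The basic forms were at 15.9% ± 0.17 and 15.7% ± 0.14 (SD, n = 3 each, exact permutation p = 0.3), with overlapping groups. Without Cryba1, the other 5 genes went from 55.5% ± 0.50 to 49.2% ± 1.9 of beta crystallin reads (SD, n = 3 each, exact permutation p = 0.1). The part of those 5 genes in the crystallin reads was not computed. Because crystallin reads are so large a part of each library, the deposited log2 CPM depend on scaling factors, which were 0.887 to 0.964 in control and 1.06 to 1.12 in Celf1cKO libraries. Scaling by total counted reads instead moved the median log2 fold-change of the genes above the expression cut-off from 0.00 to 0.23 and the numbers called in the whole table from 366 reduced and 664 elevated to 204 reduced and 1663 elevated. Relative to that scale Cryba1 was at -0.09, Crybb3 at -0.27, Crybb1 at -0.40, Cryba4 at -0.45, Cryba2 at -1.02 and Crybb2 at -1.45 (log2 fold-changes), in the same order.

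**Figure D3:**
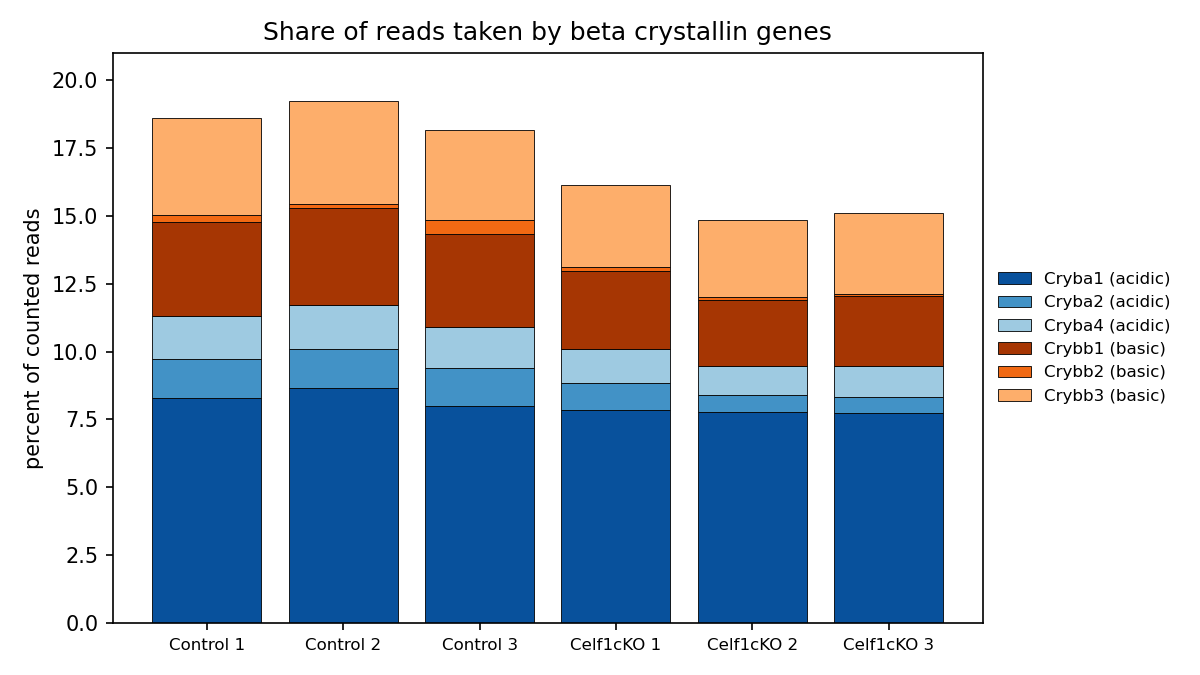
Percent of counted reads taken by each beta crystallin gene (stacked bars, vertical axis) in each of the 6 libraries, with acidic forms in blue and basic forms in orange. The stacks reach 18.2% to 19.2% in control and 14.9% to 16.1% in Celf1cKO libraries, and the lowest segment, Cryba1, differs little between them.

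Acidic reads outnumbered basic reads in every library. The ratio was 1.54, 1.56 and 1.50 in controls 1 to 3 and 1.67, 1.75 and 1.67 in Celf1cKO libraries 1 to 3, with means of 1.53 ± 0.03 and 1.70 ± 0.05 (SD, n = 3 each, exact permutation p = 0.1), but without Cryba1 it went the other way, from 0.405 ± 0.006 to 0.327 ± 0.036 (SD, n = 3 each, exact permutation p = 0.1). The groups did not overlap on either measure, and both directions turn on whether Cryba1 is counted. Taken as the mean log2 level of the acidic forms less that of the basic forms, in which each gene weighs the same, the difference between the groups was 0.19 (exact permutation p = 0.4). Per kilobase the ratio was 1.76 ± 0.03 and 1.94 ± 0.05 (SD, n = 3 each, exact permutation p = 0.1).

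The neighbours Crybb1 and Cryba4, one basic and one acidic, stood in similar proportions in both groups. Reads of Crybb1 per read of Cryba4 were 2.23, 2.19 and 2.32 in controls 1 to 3 and 2.34, 2.31 and 2.30 in Celf1cKO libraries 1 to 3. Values of both groups overlapped, with means of 2.25 ± 0.06 and 2.32 ± 0.02 (SD, n = 3 each, exact permutation p = 0.3). Quantile normalization gave a log2 ratio lower by 0.51 in Celf1cKO libraries. Of the promoters printed above, that of Cryba4 held 3 matches of TGCTGA and that of Crybb1 held 1.

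The neighbours Crybb2 and Crybb3, both basic, stood in proportions that varied widely. Per 100 reads of Crybb3 there were 7.56, 4.52 and 15.3 reads of Crybb2 in controls 1 to 3 and 4.49, 3.64 and 2.78 in Celf1cKO libraries 1 to 3. Only a narrow gap (4.52 against 4.49) separated the lowest control from the highest Celf1cKO library. The log2 ratio was lower by 1.18 in Celf1cKO libraries (exact permutation p = 0.1). Without control library 3 the difference was 0.71 (exact permutation p = 0.2). Coding sequences of the 6 genes are 60.3% to 69.5% identical in pairs, 68.4% for Crybb2 and Crybb3, and no pair of principal transcripts shares a run of over 20 bases.

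**Figure D4:**
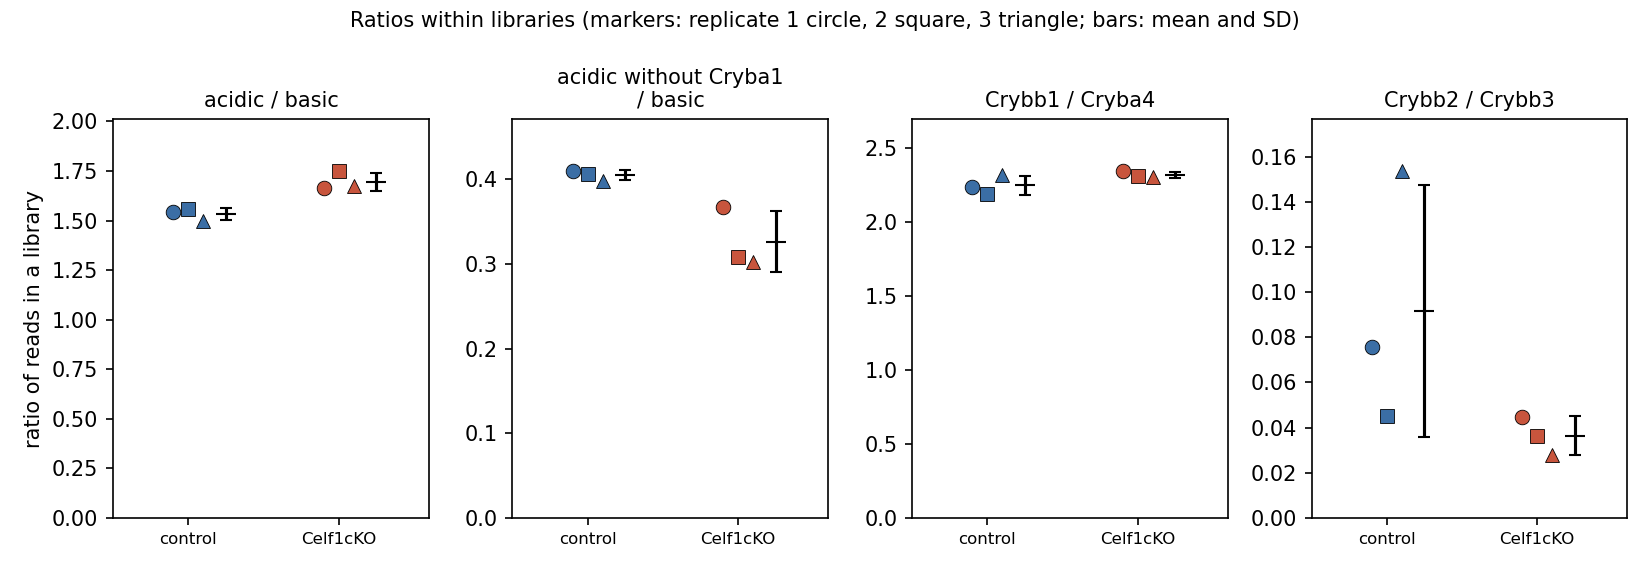
Ratios of reads within each library (vertical axes, from 0, each panel with its own scale), with control libraries in blue, Celf1cKO libraries in red and black bars for the mean and SD. Acidic over basic goes from 1.53 to 1.70 with Cryba1 and from 0.405 to 0.327 without it, Crybb1 over Cryba4 overlaps between the groups, and Crybb2 over Crybb3 is spread widely among controls.

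Genes that act with the beta crystallins were followed through lists, and their counts stand beside 2.63% of all genes called reduced and 4.77% elevated. Of 8 gamma crystallins, the partner family of the fiber cell core, 6 were called reduced and none elevated, with a median log2 fold-change of -0.98, whereas quantile normalization put Crygc at 0.05 and Crygs at 0.04, and total-count scaling put Crygs at 0.09. Under quantile normalization the median was -0.10, with no difference between the groups for Crygd and Cryge, Crygb at -0.20, Cryga at -0.37 and Crygf at -1.20. Crygf had the largest reduction of them at -1.91 (limma adjusted p = 0.0187), while Crygs and Crygn, at -0.14 and -0.44, were not called. With the replicate block Crygd was no longer called (limma adjusted p = 0.0549). Of the 2 alpha crystallins, chaperones of the lens, Cryab was called reduced at -0.73 (limma adjusted p = 0.0387, 0.0658 with the block) but stood at 0.11 under quantile normalization, and Cryaa, at -0.33, was not (limma adjusted p = 0.536). Of the 2 measured genes with the same protein fold outside these families, Crybg1 and Crybg3, neither was called.

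Of 10 measured genes of fiber cells, structural and other, 6 were called reduced and none elevated, beside 2.63% and 4.77% of all genes. The median of the 10 was -0.90, and under each scaling those 6 were below control. Lgsn, a lens protein related to glutamine synthetase, was at -4.37 (limma adjusted p = 0.0106), Dnase2b, the nuclease that degrades fiber cell nuclei, at -2.81 (0.0141), Bfsp1, a subunit of the beaded filament, at -1.47 (0.0139), Birc7 at -1.15 (0.0419), the gap junction gene Gja3 at -1.13 (0.0193) and Tdrd7, an RNA granule component, at -0.68 (0.0174). Lim2 was not in the table. Mip, the water channel of the fiber cell membrane, was at -0.37 (0.40 under quantile normalization) and was not called.

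Of 15 measured transcription factors known to act on crystallin genes, 1 was called reduced and 2 elevated, beside 2.63% and 4.77% of all genes. Whether counts this small differ from those shares was not tested. The median of the 15 was -0.03 (0.20 under total-count scaling). Mafa, a large Maf protein, was at 4.06, 4.22 and 3.88 log2 CPM in controls 1 to 3 and at 5.26, 5.91 and 5.96 log2 CPM in Celf1cKO libraries 1 to 3. All Celf1cKO libraries lay above the controls, at a log2 fold-change of 1.65 (limma adjusted p = 0.00940). Mafg, a small Maf protein, was called at 0.58 (limma adjusted p = 0.0487), just past the cut-off and at 0.56 after centring on the median. Foxe3, an epithelial factor that is also among the epithelium markers, was called at -2.01 (limma adjusted p = 0.0434). Maf, another large Maf protein, was at -0.49 (limma adjusted p = 0.0754) and Prox1 at -0.02 (limma adjusted p = 0.921, 0.21 under total-count scaling), neither called. Hsf4 was at -0.41 (limma adjusted p = 0.0210), short of the fold-change cut-off. Of the alpha and gamma crystallins, listed fiber cell genes and transcription factors together, 16 genes were called, beside 1030 of all 13931 genes. The number was 4 and 8 without controls 1 and 3, 6 without Celf1cKO library 2 and 18 without Celf1cKO library 1. None was called without control library 2 or Celf1cKO library 3.

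The 3 genes whose log2 CPM followed each member most closely over the 6 libraries, by Pearson's correlation (r of 0.993 to 0.999) among the 10634 other expressed genes, were Kpna3, Pnma1 and Amotl1 for Cryba1, Prdm16, Crygf and Ctnnal1 for Cryba2, Cryga, Igf2bp2 and Dnajb2 for Cryba4, Cryge, Tdrd7 and Ccnq for Crybb1, Nr1i3, Hmgn3 and Mink1 for Crybb2, and Ncoa2, Ahsa1 and Kpna3 for Crybb3. All of these genes were also lower in every Celf1cKO library than in any control library, so the likeness includes the difference between the groups, and all values share the same libraries. Nr1i3 had the same order as Crybb2 among the controls, at 3.82, 3.49 and 4.26 log2 CPM in controls 1 to 3, highest in library 3 and lowest in library 2. These controls were among the libraries by which Nr1i3 was picked, so their order is part of that likeness and adds nothing to it.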

How the data were processed

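RNA from whole P0 lenses was sequenced in 3 control and 3 Celf1cKO libraries, grouped by their labels. After trimming, the authors used STAR (version 2.7.8a) for alignment to GRCm38.p6 and featureCounts (version 2.0.0) to assign uniquely mapped reads to genes, removed genes of very low CPM and normalized with edgeR. They deposited each library as log2 CPM for 13931 genes. The authors' own fold-changes, F statistics, p-values and FDR in the same table were not used, and their average log2 CPM served only for the expression cut-off, which 10640 genes passed. Read numbers were recovered from the steps of these values, at a prior count of 2, and 100% came out whole within 0.05 reads. Shares and ratios were computed from these reads.

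Groups were compared on the deposited log2 CPM with limma 3.58.1 (R 4.3.3), using a prior variance that follows expression and 3.4 prior degrees of freedom, and Benjamini-Hochberg adjustment over all genes. A count model was not used because the deposited unit is log2 CPM. The procedure was tested on simulated data. Single values were compared by two-sided exact permutation tests, and p-values measure the spread between pools. Samples with the same replicate number deviated from their group means together (correlations of 0.26, 0.39 and 0.38 over genes for numbers 1 to 3), and the labels share the numbers between groups although the methods describe no pairing. The replicate block was therefore fitted as an alternative, besides other variance models, scalings, pseudocounts, cut-offs and filters, and each library left out in turn. Gene positions came from GENCODE M21, promoters from RefSeq, and the plots were made in Python 3.11.15 (matplotlib 3.10.9).

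All 6 genes are named with the value of each library. Of the lists, the genes called and a few well-known members are named, and for each beta crystallin the most similar genes. The genes and lists were chosen with earlier results of these data known.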

Additional observations from a re-analysis of the deposited data

How the results depend on the processing

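The number of beta crystallin genes called was 3 with limma and the same 3 without Celf1cKO library 1. It ranged from 0 to 3 over the fits that left out 1 library, was 0 without the variance trend and 1 under quantile normalization, and was between 2 and 4 under the other alternatives (2 with the replicate block, where Cryba4 was lost, 2 with log2(CPM + 1), 2 with total counted reads and 4 with limma voom). The block ended the calls of Cryba4, Cryab and Crygd and added Meis2, and it ended no other call of a named gene. Quantile normalization turned Cryba4 to 0.47 and Crybb3 to 0.035, and it turned the log2 ratio of Crybb1 to Cryba4 to -0.51; it assigns values by rank, and Cryba4 went from rank 9 in every control library to rank 6 or 7. As a percent of crystallin reads, the share of the 6 genes differed by 2.07 percentage points, against -3.30 of all reads. Without Cryba1, an alternative chosen after seeing the data, the log2 ratio of acidic to basic reads was -0.32, against 0.14 with it. Of the genes in the other lists, 16 were called with limma, 7 under quantile normalization and 0 to 18 when 1 library was left out. With 1 library left out, the beta crystallin share differed by -3.68 to -3.02 percentage points, the log2 ratio of acidic to basic by 0.12 to 0.16, that of Crybb1 to Cryba4 by 0.03 to 0.07 and that of Crybb2 to Crybb3 by -1.59 to -0.71. The pair ratios that did not overlap then numbered 11 to 14 of 15. Leaving out a library cannot lower that count, so it does not test how stable the pair ratios are. Paired by replicate number, the exact sign-flip test gave p = 0.25 for the share, for acidic to basic and for Crybb2 to Crybb3, the smallest it can give, and 0.5 for Crybb1 to Cryba4. The cause of these changes was not tested. Depth did not limit the 6 genes, all far above the 3-read floor. The number of libraries did, since 3 against 3 cannot give an exact p-value below 0.1.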
